A study of Homo sapiens with 6 samples.

Results

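The proteasome subunit genes described here are the 32 genes that encode the standing parts of the proteasome, the constitutive 20S core and the 19S cap. They were chosen by name, as rows of the count table whose Entrez identifier matched the symbol, and all 32 were found among 23459 genes in the table. All 32 also passed the filter on low counts, which left 12510 genes for testing. The cells were MCF10A, an untransformed human mammary epithelial line, transfected with siRNA at 20 nM. One group received a non-targeting control (siCtrl) and the other siRNA against YAP and TAZ (siYAP/TAZ), each with 3 libraries, and TAZ is the protein encoded by WWTR1. All 6 libraries are marked WT in their descriptions. Both groups had the same medium and transfection reagent, and the labels give neither an age of the cultures nor a time after transfection. RNA was read from the 3′ end of polyadenylated transcripts, so that long and short transcripts yield similar read numbers.

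The proteasome degrades proteins that carry ubiquitin chains and supplies most of the regulated protein breakdown in the cytosol and nucleus. Its core is a barrel of stacked rings. The outer α rings gate the entrance, and the inner β rings hold the proteolytic sites. The cap binds the core at its ends, recognises ubiquitin, removes the chain and unfolds the substrate with a ring of ATPases. The subunit genes are scattered over the genome and are known to be induced together by the transcription factor NRF1, the product of NFE2L1, through antioxidant response elements near their start sites.

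Group labels disagreed for 2 libraries, and the description field, repeated as the column header of the table, was used here. Under it, siCtrl replicate 2 has a title that reads siYAP/TAZ, and siYAP/TAZ replicate 2 has one that reads siCtrl. The genotype label of these 2 libraries also disagrees with the description. Replicate numbers disagreed further, since the titles of siCtrl replicate 3 and siYAP/TAZ replicate 1 each read replicate 2 of their group. The targeted genes went with the groups of the descriptions. YAP1 stood at 189, 204 and 210.3 CPM (TMM-scaled counts relative to a common library size) in siCtrl replicates 1, 2 and 3 and at 116, 118 and 112 CPM in siYAP/TAZ, so 57.5% was left (edgeR adjusted p = 0.0138, quasi-likelihood F test). WWTR1 stood at 109, 109 and 102 CPM against 70.5, 67.1 and 59.8 CPM, so 61.8% was left (edgeR adjusted p = 0.0311). Depletion was partial for both, and all siYAP/TAZ libraries lay below all siCtrl libraries. YAP1 did not pass when replicate 3 of siCtrl (0.0988) or replicate 2 (0.0606) or 3 (0.112) of siYAP/TAZ was left out, and WWTR1 did not pass when any library but siCtrl replicate 2 was left out (0.0602 to 0.176). By its whole profile siCtrl replicate 2 stood apart from the other siCtrl libraries. On the first principal component (48.4% of the variance) it lay at 7.15, against -42.6 and -34.9 for siCtrl replicates 1 and 3 and 9.77 to 33.7 for the siYAP/TAZ libraries. Library totals were 3175149 to 4317286 counts. Of 10 listed markers of basal or more generally of epithelial mammary cells, all 10 were detected, with KRT6A and KRT5 the most abundant. The fibroblast marker COL3A1 had 0 counts in every library, but the fibroblast marker COL1A1 had 3 to 12 counts a library. The leukocyte marker PTPRC had 2 to 10. The 10 basal or general epithelial markers summed to 3409 to 3656 CPM in siCtrl and 2489 to 2599 CPM in siYAP/TAZ. By log2 fold change 7 of the 10 were below 0 and 3 above, TP63 (0.58), CDH1 (0.25) and CDH3 (0.0015), and 0 passed the threshold. The 10 markers of other cells summed to 145 to 176 CPM against 152 to 163 CPM, with overlapping groups. Of these, 5 passed the filter on low counts, with log2 fold changes of -0.22 for KRT18, -0.053 for ESR1, 0.13 for KRT8, 0.14 for GATA3 and 2.10 for PECAM1 (edgeR adjusted p = 0.0785), the last at 4 to 29 counts a library. The part of either list in the results that follow was not tested.

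The promoters of PSMD12 and PSMD3, the members lowest after depletion, and of PSMC2, the member highest, are shown to let the antioxidant response element be seen in its place. Sequences are the RefSeq ones of GRCh38.p14, from 250 bases before to 50 after the start of the gene, 5′ to 3′ on the strand of the gene. Capitals mark matches to TGACNNNGC, the core of that element. It and the motifs that follow were each searched on both strands and separately, so that matches of different motifs may overlap. The PSMD12 window is chr17:67366528-67366827 (minus strand), the PSMD3 window chr17:39980557-39980856 (plus strand) and the PSMC2 window chr7:103347393-103347692 (plus strand).
PSMD12: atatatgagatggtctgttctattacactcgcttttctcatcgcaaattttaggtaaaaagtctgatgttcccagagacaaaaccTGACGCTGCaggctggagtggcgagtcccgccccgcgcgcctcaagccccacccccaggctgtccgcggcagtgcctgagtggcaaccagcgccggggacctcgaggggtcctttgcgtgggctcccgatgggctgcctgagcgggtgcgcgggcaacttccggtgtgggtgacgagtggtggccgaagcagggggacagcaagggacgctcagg
PSMD3: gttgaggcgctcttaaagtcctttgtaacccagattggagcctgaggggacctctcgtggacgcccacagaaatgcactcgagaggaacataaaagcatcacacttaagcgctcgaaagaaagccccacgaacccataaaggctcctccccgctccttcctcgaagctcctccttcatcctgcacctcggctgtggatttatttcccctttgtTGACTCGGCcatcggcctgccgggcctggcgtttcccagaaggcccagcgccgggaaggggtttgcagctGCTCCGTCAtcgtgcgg
PSMC2: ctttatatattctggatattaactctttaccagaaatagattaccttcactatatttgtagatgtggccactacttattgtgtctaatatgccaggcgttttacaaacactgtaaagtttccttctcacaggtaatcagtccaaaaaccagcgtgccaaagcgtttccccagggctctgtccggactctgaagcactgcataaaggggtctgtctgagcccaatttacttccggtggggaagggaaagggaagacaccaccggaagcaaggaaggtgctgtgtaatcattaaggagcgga
In PSMD12 the match begins at position 86 of the window. PSMD3 holds 2, at position 214 and, read on the opposite strand, at position 284, past the start of the gene. The PSMC2 window holds 0, which says only that these letters are not in this window. A window was given for 27 of the 32 members, and 8 of the 27 (29.6%) held the core in at least 1 of their windows: PSMA4, PSMB3, PSMC4, PSMC5, PSMD1, ADRM1, PSMD3 and PSMD12. Of 27305 genes with such a window, 16.1% did. The promoters shown were picked by fold change. PSMD2 and PSMD11, the next lowest members (log2 fold change -0.46 and -0.40), had windows without the core. Whether matches go with the fold changes was not tested. GGAATG, the site bound by the TEAD partners of YAP and TAZ, was found in 4 members (14.8%) against 16.7% of all genes, and these were PSMA4, PSMB5, PSMC5 and PSMC6. The CCAAT box (CCAAT) was found in 16 members (59.3%) against 39.7% of all genes, and the GC box (GGGCGG) in 19 members (70.4%) against 48.3%. A match is a description of the sequence and not a measured binding site.

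No proteasome subunit gene passed an adjusted p of 0.05 between siYAP/TAZ and siCtrl in edgeR, in either direction. Of all genes tested, 1.22% were called lower and 0.743% higher. At an unadjusted p under 0.05, 4 members were lower (PSMD3, PSMD2, PSMD12 and PSMD6) and 1 was higher (PSMC2), where the shares among all genes were 9.27% lower and 8.4% higher. DESeq2 also called 0 members, with 3 lower and 1 higher at an unadjusted p under 0.05. The shares there were 5.36% and 4.67% of 19181 genes, which include those below the low-count filter of edgeR. Levels in all siYAP/TAZ libraries lay below all siCtrl libraries for 4 members (PSMB4, PSMC6, PSMD3 and PSMD6) and above them for PSMC2 alone, while 11.1% and 11% of all genes were separated in this way. For members that were lower in edgeR or separated below, these counts are near the shares among all genes tested. The median log2 fold change of the members was -0.19 (quartiles -0.31 and -0.026), with 25 of 32 below 0 (78.1%), whereas the median over all genes was -0.00093, with 50.1% below 0. The members ranged from -0.58 for PSMD12 to 0.30 for PSMC2. For 31 of 32 members the 95% interval lay between -1 and 1 on the log2 scale, which is a 2-fold difference either way, and the exception was PSMD12. RNA was measured in bulk, so a lower level in every cell and a lower share of cells with a high level cannot be told apart. The p-values measure the spread between these libraries, for which the labels name no separate cultures.

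**Figure D1:**
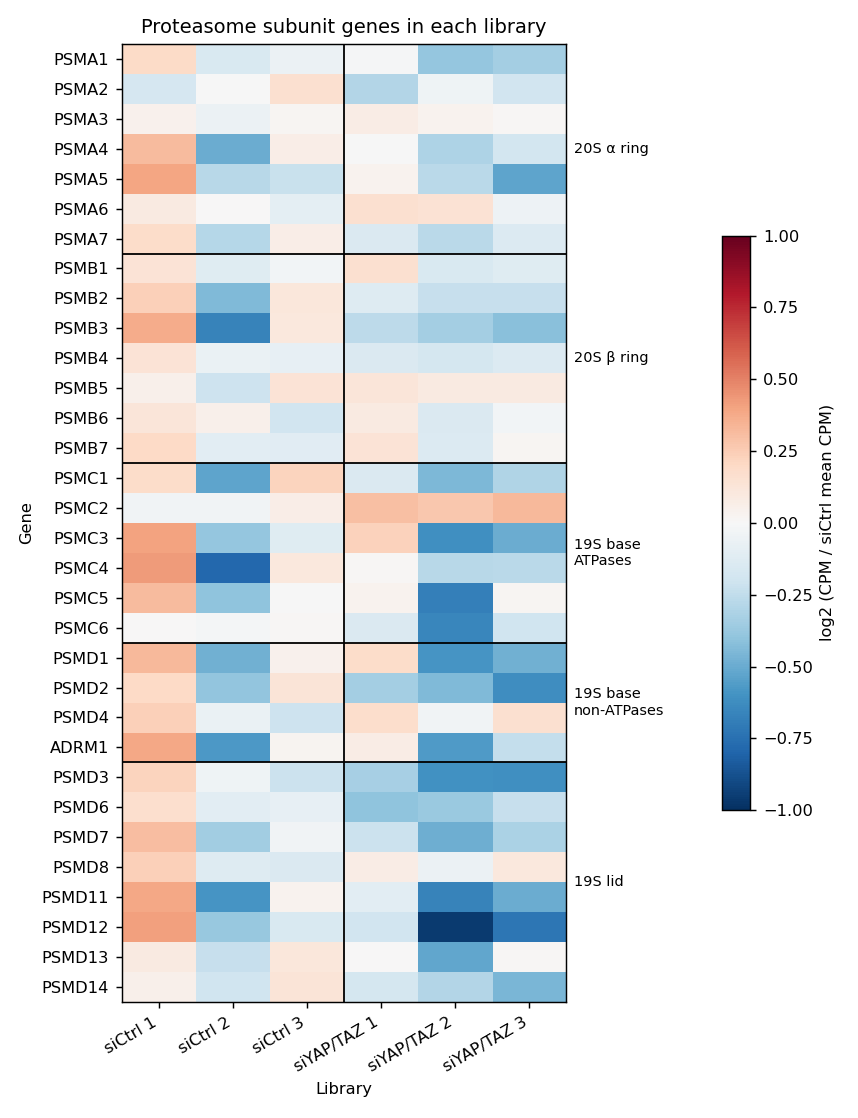
Level of each of the 32 genes (y axis, grouped by sub-complex) in each of the 6 libraries (x axis), coloured by the log2 ratio of its CPM to the siCtrl mean. The siCtrl replicate 1 column is the highest for 22 genes, and the siCtrl replicate 2 column is the lowest for 10.

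The siCtrl libraries differed from each other by more than the group means did. The 32 genes together took 4076, 3068 and 3594 CPM in siCtrl replicates 1, 2 and 3 and 3587, 3021 and 3161 CPM in siYAP/TAZ, means of 3579 ± 504 and 3256 ± 294 (SD, n = 3). The groups overlapped, since siCtrl replicate 2 lay at the level of the siYAP/TAZ libraries. The median member lay at 0.22, -0.21 and 0.022 relative to the siCtrl mean on the log2 scale in siCtrl replicates 1, 2 and 3, against 0.022, -0.27 and -0.18 in siYAP/TAZ. In siCtrl replicate 1, 22 members were at their highest, and in siCtrl replicate 2, 10 were at their lowest. Set against the other siCtrl libraries, siCtrl replicate 2 was lower for 30 of 32 members with a median of -0.32, whereas its median over all genes was 0.0044. The same comparison for siYAP/TAZ replicate 2 gave 27 of 32 members lower and a median of -0.16, against -0.0024 over all genes. Replicate 2 was the library with the lowest summed level in both groups.

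Replicate numbers of the descriptions, with which the titles partly disagree, were taken to pair the libraries. Within these pairs the siYAP/TAZ library had the lower level for 27 members in pair 1, 18 in pair 2 and 25 in pair 3. Median differences were -0.25, -0.033 and -0.26. The summed level was also lower in 3 of 3 pairs. In all 3 pairs 14 members were lower and 2 were higher (PSMA6 and PSMC2), where the shares among all genes were 22.8% and 23.3%. Of the 14, 7 belonged to the lid, 2 each to the α ring, the ATPases and the base non-ATPases, and 1, PSMB4, to the β ring. With the replicate number as a block in edgeR, 2 members passed, both lower and both in the lid, PSMD12 and PSMD3, and 0 were higher. The shares of all genes called in that fit were 5.44% lower and 4.66% higher. At an unadjusted p under 0.05 it had 9 members lower and 1 higher, beside 13.3% and 12.7% of all genes. Without siCtrl replicate 2, PSMD2 and PSMD11 passed and were lower, 0 were higher, and 6.22% of all genes were called lower and 6.08% higher. At an unadjusted p under 0.05 that fit had 13 members lower and 1 higher, beside 14.2% and 13.7% of all genes. Without both libraries of disputed label PSMD2 alone passed (log2 fold change -0.63, edgeR adjusted p = 0.0320), where 4.64% of all genes were called lower and 4.65% higher. The median of the members was -0.058, with 17 below 0, without siCtrl replicate 1 and -0.33, with 26 below 0, without siCtrl replicate 2.

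**Figure D2:**
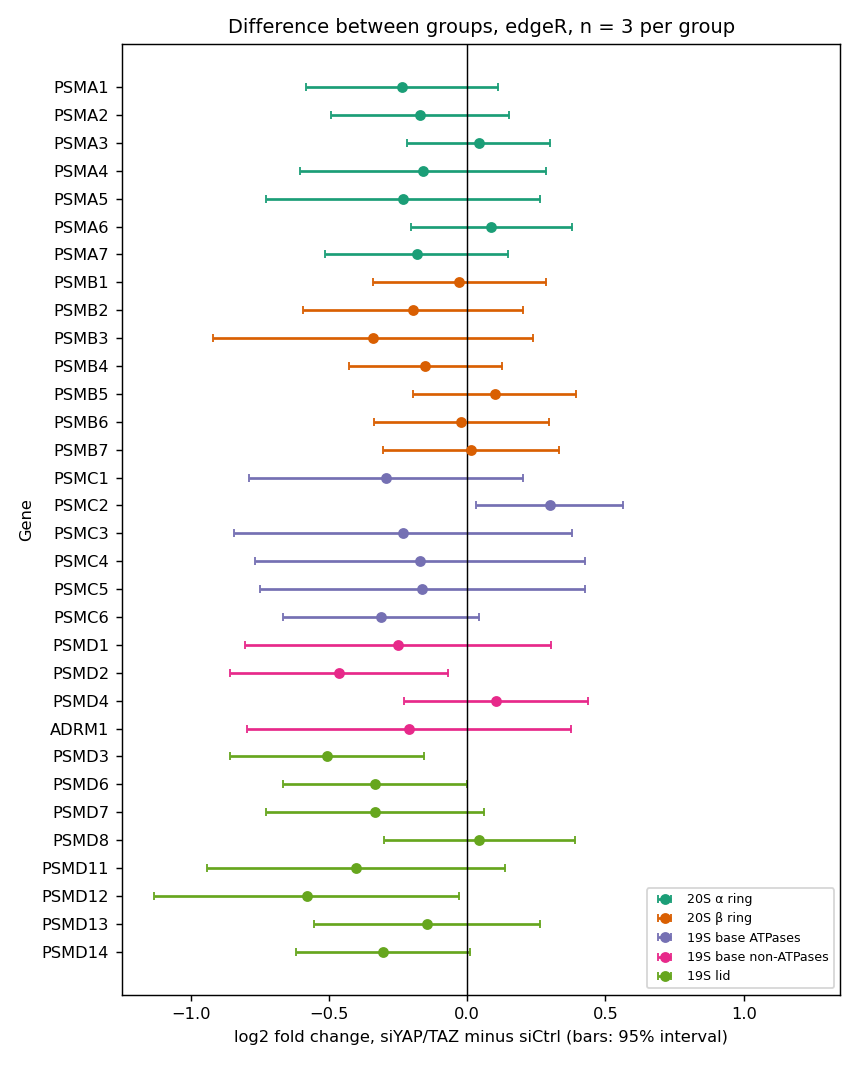
Log2 fold change of each gene in siYAP/TAZ against siCtrl (x axis, points, edgeR, 3 libraries a group) with its 95% interval (bars), coloured by sub-complex. Points lie between -0.58 (PSMD12) and 0.30 (PSMC2), and 25 of 32 lie below 0.

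The 7 α subunits, PSMA1 to PSMA7, form the outer rings that the cap docks onto. Their median log2 fold change was -0.17, with 5 below 0, and 0 passed, also at an unadjusted p under 0.05. PSMA1, the lowest of them, stood at 358, 281 and 300.04 CPM in siCtrl against 309.8, 239.7 and 247 CPM in siYAP/TAZ. The siYAP/TAZ library was lower in each pair, but replicate 1 of siYAP/TAZ lay above siCtrl replicates 2 and 3. Its log2 fold change was -0.24 (SE 0.15, edgeR adjusted p = 0.463). PSMA6, the highest of them, stood at 92.8, 87.3 and 81.7 CPM in siCtrl against 97.7, 96.2 and 84.04 CPM in siYAP/TAZ. The siYAP/TAZ library was the higher one in every pair and the groups overlapped, with a log2 fold change of 0.087 (SE 0.13, edgeR adjusted p = 0.777). The other 5 lay between -0.23 (PSMA5) and 0.041 (PSMA3). The span of PSMA3 overlaps those of PSMA3-AS1 and ARMH4 on the opposite strand, while their annotated exons do not overlap. Whether reads were counted over exons or whole spans is not given in the sources used here.

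The 7 β subunits had the median nearest to that of all genes, -0.028, with 5 below 0 and 0 past either threshold. The proteolytic sites lie on PSMB6, PSMB7 and PSMB5, which cut after acidic, basic and hydrophobic residues. PSMB5 (GRCh37 chr14:23485752-23504439, minus strand) stood at 202, 168 and 214 CPM in siCtrl against 212, 208 and 207 CPM in siYAP/TAZ. Only siCtrl replicate 2 was low, and the siYAP/TAZ libraries lay within the siCtrl range. Its log2 fold change was 0.10 (95% interval -0.20 to 0.39), the highest of the ring. PSMB6 had 87.02, 83.01 and 70.4 CPM in siCtrl against 85.4, 72.4 and 78.6 CPM in siYAP/TAZ, a log2 fold change of -0.021 (-0.34 to 0.29). PSMB7 had 122, 98.7 and 98.5 CPM against 117, 96.9 and 108 CPM, with 0.015 (-0.30 to 0.33), and -0.0037 with library size alone as the scaling. The groups overlapped for all 3 catalytic genes, and adjusted p-values in edgeR were 0.743, 0.955 and 0.969 for PSMB5, PSMB6 and PSMB7. PSMB3, a structural subunit and the lowest of the ring, had 33.03, 16.05 and 27.4 CPM in siCtrl against 21.3, 20.2 and 19.04 CPM in siYAP/TAZ. Here siCtrl replicate 2 was the lowest of all 6 libraries and the other siCtrl libraries the highest. The log2 fold change was -0.34 (SE 0.26, edgeR adjusted p = 0.535) with all libraries -0.58 (adjusted p = 0.0707) without siCtrl replicate 2 and -0.11 (adjusted p = 0.890) without siCtrl replicate 1. PSMB4, the β subunit whose groups did not overlap, stood at 134, 116 and 115 CPM against 110.2, 107 and 111 CPM, a gap that is small beside the spread in siCtrl (log2 fold change -0.15, SE 0.12, edgeR adjusted p = 0.568).

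The 6 ATPases of the base, PSMC1 to PSMC6, form the ring that unfolds substrates and opens the gate. Their median log2 fold change was -0.20, with 5 below 0, and PSMC2 was the highest of all 32 members. PSMC2 (GRCh37 chr7:102969017-103010793, plus strand) stood at 253, 252 and 272 CPM in siCtrl against 319, 311 and 325 CPM in siYAP/TAZ. All 3 siYAP/TAZ libraries were above all 3 siCtrl libraries, and siCtrl replicate 2 lay at the level of replicate 1. The means were 259 ± 11.2 and 319 ± 6.83 CPM (SD, n = 3), a log2 fold change of 0.30 (SE 0.12, 95% interval 0.032 to 0.56). The unadjusted p in edgeR was 0.0317 and the adjusted p 0.235 (0.101 with the replicate block). The log2 fold change of PSMC2 stayed between 0.28 and 0.33 whichever single library was left out. Its locus also holds PMPCB, DNAJC2 and SLC26A5, which gave values of 0.050, -0.054 and -0.18 (edgeR adjusted p-values 0.865, 0.877 and 0.722). PSMC2 took 94.5, 142 and 116 counts per 100 counts of the other 5 ATPases in siCtrl against 143, 197 and 171 in siYAP/TAZ. This ratio within each library does not depend on scaling. PSMC2 was picked for it as the highest member, and the log2 fold changes of the other 5 were all below 0. A higher ratio therefore follows from the values already given and is no separate result. PSMC6, the lowest of the ring, stood at 79.3, 78.1 and 79.7 CPM in siCtrl against 71.4, 50.2 and 68.8 CPM in siYAP/TAZ. The siCtrl libraries were within 2 CPM of each other and above every siYAP/TAZ library, with replicate 2 of siYAP/TAZ the lowest. Its log2 fold change was -0.31 (SE 0.16, edgeR adjusted p = 0.341). For PSMC1, PSMC3, PSMC4 and PSMC5 it lay between -0.29 and -0.16 with overlapping groups. In these 4, siCtrl replicate 2 was at 16.05 to 33.02 CPM against 21.1 to 76.7 CPM in the other siCtrl libraries. PSMC1 shares its 3′ end with NRDE2 and PSMC5 overlaps FTSJ3, so their counts are uncertain.

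The base also holds the scaffolds PSMD1 and PSMD2 and the ubiquitin receptors PSMD4 and ADRM1. PSMD2 (GRCh37 chr3:184016986-184026838, plus strand), a docking site for shuttle proteins that carry ubiquitinated substrates, stood at 123, 81.5 and 118 CPM in siCtrl against 84.99, 79.00 and 69.6 CPM in siYAP/TAZ. In siCtrl replicates 1 and 3 it was above every siYAP/TAZ library, and siCtrl replicate 2 lay among them. Means were 107 ± 22.6 and 77.9 ± 7.75 CPM (SD, n = 3). The log2 fold change was -0.46 (SE 0.18, edgeR adjusted p = 0.218) with all libraries, and the adjusted p was 0.0798 with the replicate block. Without siCtrl replicate 2 it was -0.62 (SE 0.14, adjusted p = 0.0153), and without siCtrl replicate 1 it was -0.36 (adjusted p = 0.474). PSMD4 stood at 149.6, 121 and 110.1 CPM in siCtrl against 143, 124 and 141 CPM in siYAP/TAZ, with the siYAP/TAZ libraries inside the siCtrl range and a log2 fold change of 0.10 (SE 0.15, edgeR adjusted p = 0.763). PSMD1 ran from 192 to 335 CPM in siCtrl and from 178 to 303 CPM in siYAP/TAZ, a log2 fold change of -0.25 (edgeR adjusted p = 0.647). ADRM1 ran from 20.7 to 40.2 and from 20.8 to 32.4 CPM, with a log2 fold change of -0.21 (edgeR adjusted p = 0.722). In both of them replicate 1 was the highest library of each group. ADRM1 shares its 3′ end with LAMA5 and PSMD1 overlaps HTR2B.

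The 8 lid genes encode the scaffold that holds the deubiquitinase PSMD14, which removes the ubiquitin chain. They had the lowest median of the sub-complexes, -0.33, with 7 below 0, 3 of them at an unadjusted p under 0.05. PSMD12 (GRCh37 chr17:65334032-65362721, minus strand) stood at 107, 62.3 and 72.9 CPM in siCtrl against 70.7, 41.6 and 48.95 CPM in siYAP/TAZ. In each pair the siYAP/TAZ library was lower, and the groups overlapped only because siYAP/TAZ replicate 1 lay above siCtrl replicate 2. The log2 fold change was -0.58 (SE 0.25, 95% interval -1.13 to -0.028, edgeR adjusted p = 0.263). With the replicate block it was -0.59 (SE 0.12, adjusted p = 0.0139). Leaving out a single library moved the value of PSMD12 from -0.32 (adjusted p = 0.604, siCtrl replicate 1 absent) to -0.83 (adjusted p = 0.152, siYAP/TAZ replicate 1 absent). PSMD3 (GRCh37 chr17:38137060-38154212, plus strand) stood at 140.2, 116 and 103 CPM in siCtrl against 95.4, 78.7 and 78.3 CPM in siYAP/TAZ. Every siYAP/TAZ library was below every siCtrl library, siCtrl replicate 2 included. Its log2 fold change was -0.51 (SE 0.16, edgeR adjusted p = 0.135), and -0.50 (SE 0.12, adjusted p = 0.0214) with the replicate block.

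**Figure D3:**
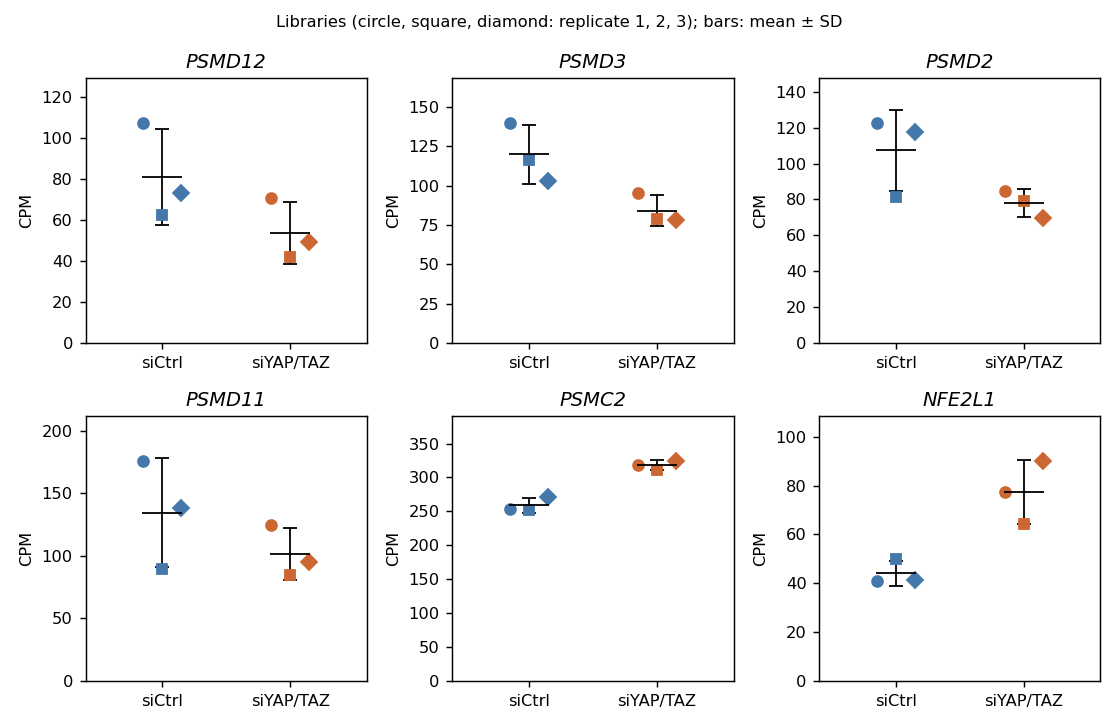
CPM (y axis) of 5 proteasome subunit genes and of NFE2L1 in siCtrl and siYAP/TAZ libraries, with the mean and SD of 3 libraries as bars and one symbol per replicate number. PSMD12 and PSMD11 overlap between groups, PSMD3 does not, siCtrl replicate 2 is the low control for PSMD2, and PSMC2 and NFE2L1 are higher in every siYAP/TAZ library.

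PSMD11, a lid scaffold subunit, stood at 176, 89.5 and 138 CPM in siCtrl against 125, 84.95 and 95.5 CPM in siYAP/TAZ. It was lower in each pair, by little in pair 2. The log2 fold change was -0.40 (SE 0.24, edgeR adjusted p = 0.420), -0.62 (SE 0.18, adjusted p = 0.0443) without siCtrl replicate 2 and -0.16 (adjusted p = 0.811) without siCtrl replicate 1. PSMD8, the highest of the lid, stood at 66.6, 51.8 and 51.3 CPM in siCtrl against 59.6, 54.2 and 60.9 CPM in siYAP/TAZ. The siYAP/TAZ libraries lay within the siCtrl range, with a log2 fold change of 0.044 (SE 0.15, edgeR adjusted p = 0.913). PSMD6 did not overlap, at 58.3, 48.1 and 49.00 CPM against 39.2, 40.00 and 44.1 CPM, with a log2 fold change of -0.33 (SE 0.15, edgeR adjusted p = 0.282). Its 3′ end overlaps PSMD6-AS2, for which the value was -0.19. PSMD14 itself stood at 178, 149 and 187 CPM in siCtrl against 152, 139 and 125 CPM in siYAP/TAZ, where siYAP/TAZ replicate 1 alone lay above a siCtrl library. Its log2 fold change was -0.30 (SE 0.14, edgeR adjusted p = 0.294), beside -0.33 for PSMD7 and -0.14 for PSMD13.

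The lid and the core were then set against each other within each library, a comparison chosen after the values were seen and given with no test. The 8 lid genes summed to 923, 652 and 769.7 CPM in siCtrl against 693, 557 and 598 CPM in siYAP/TAZ, means of 782 ± 136 and 616 ± 69.9 (SD, n = 3). The 14 core genes summed to 1985, 1571 and 1783 CPM in siCtrl against 1787, 1593 and 1619 CPM in siYAP/TAZ, means of 1780 ± 207 and 1666 ± 105. Both sums overlapped between groups, and for the core siCtrl replicate 2 was the lowest of all 6 libraries. Per 100 core counts there were 46.5, 41.5 and 43.2 lid counts in siCtrl against 38.8, 35.0 and 36.9 in siYAP/TAZ (43.7 ± 2.54 and 36.9 ± 1.90). This ratio did not overlap between groups and was lower in siYAP/TAZ in 3 of 3 pairs, and replicate 2 was again the lowest of its group in both. The lid had the lowest median of the sub-complexes, so a lower ratio follows from the values already given and is no separate result. For the whole cap the ratio was 100.7 ± 5.09 counts in siCtrl and 95.2 ± 5.50 counts in siYAP/TAZ per 100 core counts.

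**Figure D4:**
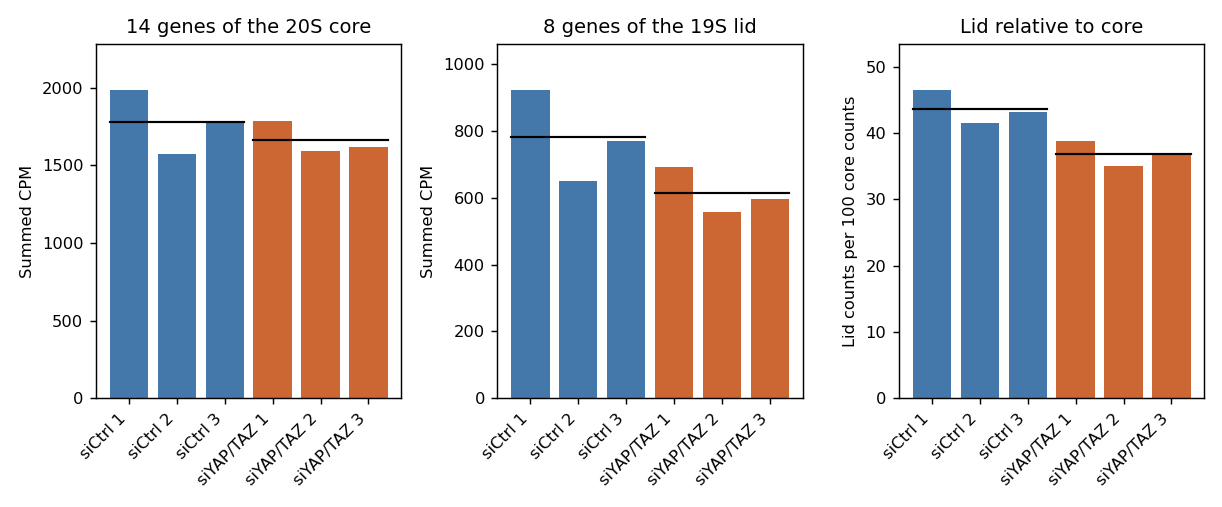
Summed CPM of the 14 core genes and of the 8 lid genes and the lid counts per 100 core counts (y axes) in each library (x axis; bars), with the group means as lines. The core sums overlap between groups, and the ratio is 41.5 to 46.5 in siCtrl and 35.0 to 38.8 in siYAP/TAZ.

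Genes that act with the constitutive subunits were listed by role, 51 in all, of which 49 were tested. In edgeR 1 of them rose, NFE2L1, and 0 fell, with 3 lower and 3 higher at an unadjusted p under 0.05, and their median log2 fold change was -0.065. The count of those called was 4 with the replicate block (among them NFE2L1 and ZFAND5 higher and UCHL5 lower). That fit called 5.44% of all genes lower and 4.66% higher. The count was 5 without siCtrl replicate 2 (NFE2L1 and ZFAND5 higher, PSMA8, UCHL5 and UBA6 lower), beside 6.22% and 6.08% of all genes. Both counts are near the shares among all genes. Without any other single library the count was 0. NFE2L1 encodes NRF1, the factor that raises proteasome gene transcription when proteasome activity is short. It stood at 40.8, 49.99 and 41.5 CPM in siCtrl against 77.5, 64.1 and 90.3 CPM in siYAP/TAZ. All 3 siYAP/TAZ libraries were above all 3 siCtrl libraries, and siCtrl replicate 2 was the control nearest to them. Means were 44.1 ± 5.13 and 77.3 ± 13.1 CPM (SD, n = 3), a log2 fold change of 0.81 (SE 0.17, 95% interval 0.44 to 1.19, edgeR adjusted p = 0.0455). The call was lost with library size alone as the scaling (adjusted p = 0.0512), with the groups of the titles (0.898), and when replicate 1 (0.136) or 3 (0.215) of siCtrl or replicate 1 (0.0959), 2 (0.0606) or 3 (0.211) of siYAP/TAZ was left out. It stood at 0.0107 with the replicate block and 0.00833 without siCtrl replicate 2. The RNA level does not report the NRF1 protein, which is known to be controlled by breakdown and cleavage. The other 8 regulators did not pass. NFE2L2, which encodes the related NRF2, stood at 234, 318 and 229 CPM in siCtrl against 279, 273 and 315 CPM in siYAP/TAZ with overlapping groups (log2 fold change 0.15, SE 0.16, edgeR adjusted p = 0.672). Its 3′ end overlaps HNRNPA3, so its counts are uncertain. MAFK, a small partner of both factors, was the lowest regulator at 15.5, 16.97 and 11.1 CPM against 12.2, 14.2 and 10.3 CPM, with overlapping groups (log2 fold change -0.24, SE 0.25, edgeR adjusted p = 0.669). Counts of MAFK are likewise uncertain, since its 3′ end overlaps TMEM184A.

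The immune counterparts PSMB8, PSMB9 and PSMB10 replace the catalytic β subunits in immune cells and after interferon. PSMB8 stood at 16.7, 12.3 and 17.8 CPM in siCtrl against 23.3, 21.2 and 17.4 CPM in siYAP/TAZ (log2 fold change 0.40, SE 0.22, edgeR adjusted p = 0.388). PSMB9 stood at 8.62, 13.6 and 8.04 CPM against 8.61, 16.2 and 17.1 CPM (log2 fold change 0.47, SE 0.33, edgeR adjusted p = 0.504), and PSMB10 at 26.7, 14.8 and 14.8 CPM against 26.97, 17.9 and 17.95 CPM (0.17, SE 0.29, adjusted p = 0.811). All 3 overlapped between groups and did not pass. They were well below PSMB5, PSMB6 and PSMB7 in these 3′ counts. PSMB8 and PSMB9 overlap each other and PSMB8-AS1, so their counts are uncertain. The thymus subunit PSMB11 had 0 counts in every library, which allows up to 0.695 to 0.945 CPM, counting error only. PSMA8, the testis counterpart of PSMA7, stood at 90.2, 34.6 and 67.3 CPM in siCtrl against 56.9, 33.1 and 40.3 CPM in siYAP/TAZ (log2 fold change -0.55, SE 0.32, edgeR adjusted p = 0.405). It passed without siCtrl replicate 2 (-0.84, adjusted p = 0.0312) and had -0.23 (adjusted p = 0.802) without siCtrl replicate 1. It resembles PSMA7, so the origin of its reads is uncertain.

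The activators PSME1, PSME2, PSME3 and PSME4 and the inhibitor PSMF1 had a median of 0.10 on that scale, with 0 past the threshold. PSME1 was the highest, at 46.5, 64.5 and 51.5 CPM in siCtrl against 60.3, 78.01 and 75.6 CPM in siYAP/TAZ. It was higher in 3 of 3 pairs with overlapping groups (log2 fold change 0.39, SE 0.17, edgeR adjusted p = 0.273). Its partner PSME2 had 0.32 and did not overlap between groups (33.3 to 37.03 CPM against 40.7 to 48.5 CPM). Counts of PSME1 are uncertain, since its 3′ end overlaps EMC9. PSME3, an activator in the nucleus and the lowest of the list, stood at 98.2, 31.2 and 68.9 CPM against 76.4, 46.6 and 54.1 CPM. Both the highest and the lowest library were siCtrl, and its log2 fold change was -0.16 with all libraries and 0.24 without siCtrl replicate 1. The 9 assembly chaperones had a median of -0.15 with 8 below 0, from -0.33 for PSMG4 to 0.21 for PSMD10, and 0 passed. PSMG4 stood at 25.3, 18.5 and 20.4 CPM against 20.4, 15.9 and 14.7 CPM, and PSMD10 at 12.9, 11.7 and 15.8 CPM against 17.5, 9.59 and 19.6 CPM, with overlapping groups for both. The 13 tested of 14 reversibly bound and shuttle proteins had a median of -0.17 with 10 below 0.

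ZFAND5, an activator of the cap, was the highest of the reversibly bound and shuttle proteins at 74.4, 143 and 85.2 CPM in siCtrl against 136, 145 and 178 CPM in siYAP/TAZ. Only siCtrl replicate 2 reached the siYAP/TAZ range. The log2 fold change was 0.60 (SE 0.23, edgeR adjusted p = 0.226) with all libraries, 0.65 (adjusted p = 0.0458) with the replicate block, 0.94 (adjusted p = 0.00445) without siCtrl replicate 2 and 0.43 (adjusted p = 0.476) without siCtrl replicate 1. UCHL5, a deubiquitinase held by ADRM1 and named here after its values were seen, stood at 209, 144 and 172 CPM against 145, 126 and 118 CPM. Its log2 fold change was -0.43 (SE 0.16, edgeR adjusted p = 0.215), and it passed with the replicate block (0.0484) and without siCtrl replicate 2 (0.0312). Among 9 genes of ubiquitin, its activating enzymes and the VCP unfoldase, the median was -0.13 and 0 passed. UBA6, an activating enzyme, was the lowest, at 128, 109.5 and 127 CPM against 97.2, 95.2 and 86.2 CPM, with groups that did not overlap (log2 fold change -0.39, SE 0.13, edgeR adjusted p = 0.164, and 0.0411 without siCtrl replicate 2).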

How the data were processed

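Libraries of polyadenylated RNA were made with a 3′ kit (QuantSeq FWD) from MCF10A cells, 3 siCtrl and 3 siYAP/TAZ. The authors deposited unnormalised read counts by Entrez gene, 1 column for each of the 6 libraries. The submitters' processing notes name cutadapt 4.2, Bowtie2 2.3.5.1 and hg19, and the study's RNA-Seq methods describe counting of overlapping reads in R. The gene annotation and the use of strand are not given in the sources used here. Such counts cannot separate overlapping genes, and 7 members overlap a gene with a row in the table. Of 42 named pseudogenes of members, 0 have a row. Symbols were taken from the RefSeq table of GRCh38.p14 (names and promoters only) for 23308 identifiers with 99.7% of the counts, and positions from a GENCODE annotation lifted to GRCh37. There were 0 rows without a gene.

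Counts were tested in edgeR 4.0.16 under R 4.3.3 (glmQLFit and glmQLFTest, TMM scaling, default filterByExpr, a design of group alone). P-values were adjusted by Benjamini-Hochberg over the 12510 genes tested, with 0.05 as the threshold. Standard errors and 95% intervals were derived from the fold change and its F statistic. The fit was tested on simulated data. Library totals were 3175149 to 4317286 counts, so that the floor of 3 counts is 0.695 to 0.945 CPM. Counts have no molecular identifiers, and this floor covers counting error only. No libraries were repeats (chi-square divided by its degrees of freedom 5.37 to 17.4 for libraries of 1 group). Across genes, which are not independent replicates, same-numbered libraries of both groups deviated together from their group means (r of 0.42, 0.35 and 0.13). The numbers come from the descriptions and were taken to pair the libraries, while the titles number some libraries otherwise. The alternatives took DESeq2 1.42.0 as the tool, RLE factors or library size alone as the scaling, robust dispersion, a filter at a mean count of 50 or none, the replicate block, the groups of the titles, and left out both disputed libraries or 1 library at a time.

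The members and the lists were chosen with earlier results of these data known. Values in every library are given for members past the threshold in any of the main, blocked or siCtrl replicate 2-free fits, for the lowest and highest log2 fold change in each sub-complex and for the catalytic subunits. They are likewise given for the immune subunits, NFE2L1, NFE2L2 and the lowest and highest gene of each related list. PSMA2 to PSMA5, PSMB4, PSMC1, PSMC3, PSMC4, PSMC5, PSMD1, ADRM1, PSMD6, PSMD7, PSMD13, PSMD14, PSME2, UCHL5 and the overlapping neighbours were named outside this rule after their values were seen. Of the genes this rule names, 2 are not reported here.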

Additional observations from a re-analysis of the deposited data

How the results depend on the processing

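The number of genes called between the groups was 245 (2211 at an unadjusted p under 0.05 in edgeR). It was 587 with DESeq2, 556 with no low-count filter, 1263 with the replicate block, 1183 without both libraries of disputed label and 0 with the groups of the titles (464 at an unadjusted p under 0.05), while leaving out 1 library gave 16 (siCtrl replicate 3 absent) to 1579 genes (siCtrl replicate 2 absent). Proteasome subunit genes called lower numbered 0 with all libraries, 2 with the replicate block, 1 without both disputed libraries and 0 to 2 with 1 library left out, the 2 being without siCtrl replicate 2. Beside the calls given in the report the block changed no call of the genes followed. None was called higher under any of the 15 alternatives (0 or 1 at an unadjusted p under 0.05 in edgeR or DESeq2). Their median log2 fold change stayed below 0 under all 15, from -0.33 to -0.058. Related genes called numbered 1, and 0 with library size alone (6 at an unadjusted p under 0.05), 4 with the replicate block, 0 with the groups of the titles (2 at an unadjusted p under 0.05), 2 without both disputed libraries and 0 to 5 with 1 library left out.

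Directions reversed with the groups of the titles for PSMA6 (-0.0071), PSMB5 (-0.086), PSMC6 (0.058), PSMB6 (0.10) and PSMB8 (-0.057), without both disputed libraries for PSMB6 (0.066), and with library size alone for PSMB7 (-0.0037). With 1 library left out the log2 fold change spanned 0 for PSMD8 (-0.025 to 0.18), PSMB6 (-0.11 to 0.043), PSMB7 (-0.053 to 0.12), PSMB10 (-0.068 to 0.51) and PSME3 (-0.49 to 0.24). Of the values of named genes under the alternatives, 418 kept direction and side of the threshold, 11 newly passed, 17 no longer passed and 17 reversed. YAP1 and WWTR1 did not pass with the groups of the titles (adjusted p of 0.904 and 0.905 in edgeR), YAP1 also not without replicate 2 or 3 of siYAP/TAZ or replicate 3 of siCtrl (0.0606 to 0.112), and WWTR1 not without any library other than siCtrl replicate 2 (0.0602 to 0.176). The causes were not tested. With 3 libraries a group the median 95% interval of a member, which is not adjusted for the genes tested, extended 0.35 to either side on the log2 scale. Smaller differences were not detectable for most members. Larger ones did not pass the adjusted threshold either, as for PSMD12 (-0.58, edgeR adjusted p = 0.263) and PSMD3 (-0.51, edgeR adjusted p = 0.135).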
